A study of Mus musculus with 4 samples.

Results

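The genes described here are pattern recognition receptors and the molecules they signal with: the Toll-like receptors Tlr2, Tlr4, Tlr7 and Tlr13, the co-receptor Cd14, the adaptor Myd88, the inflammasome sensor Nlrp3 and the C-type lectins Clec4d, Clec4e and Clec7a. The members were chosen by name, 10 of the 31053 genes, and 9 of them had a row in the deposited matrices; Clec7a, which encodes the beta-glucan receptor dectin-1, was not analysed here. The cells were live CD45+ leukocytes sorted by flow cytometry from 3 mm excisional skin wounds of C57BL6/J mice. Wounds of Angptl4+/+ and Angptl4-/- mice were harvested on day 1 or day 5 after wounding (1 dpw and 5 dpw), which gave 4 droplet libraries, 1 for each genotype and day. Per the methods the mice were 8 weeks old and male, and the Angptl4-/- mice came from a knockout line, so the loss was not limited to leukocytes, and all 4 groups shared the wound, the age and the sort. How many mice went into a library is not given in the sources used here. With 1 library per group the spread between mice was not measured, so no difference between libraries has a replicate check, and every interval printed is an exact 95% interval that covers counting error only.

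Pattern recognition receptors are germline-encoded sensors with which leukocytes detect microbial molecules and debris of damaged tissue. Tlr2 and Tlr4 act at the cell surface, where Cd14 hands lipopolysaccharide to Tlr4, whereas Tlr7 and Tlr13 read RNA inside endosomes, and all 4 receptors signal through Myd88. Nlrp3 assembles with Pycard and Casp1 into an inflammasome that processes interleukin-1 beta, and Clec4d and Clec4e, which pair with the Fc receptor gamma chain (Fcer1g), recognise mycobacterial glycolipid and, for Clec4e, material from dead cells.

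In the GRCm38 genome, Clec4d (ENSMUSG00000030144, chr6:123262111-123275265, plus strand) and Clec4e (ENSMUSG00000030142, chr6:123281789-123289870, minus strand) were neighbours with 6.52 kb between them. Tlr2 (ENSMUSG00000027995) lay on chr3:83836272-83841767, Tlr4 (ENSMUSG00000039005) on chr4:66827584-66930284, Myd88 (ENSMUSG00000032508) on chr9:119335934-119341411 and Nlrp3 (ENSMUSG00000032691) on chr11:59541568-59566956. Tlr7 (ENSMUSG00000044583, chrX:167304929-167330558) and Tlr13 (ENSMUSG00000033777, chrX:106143204-106160493) were both X-linked. All were annotated as protein-coding.

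The promoters of 5 of the members that moved together between days, or that signal for them, are shown as RefSeq places their start sites on GRCm38.p6. Each run holds 250 bases before the start site and 30 after it, 5′ to 3′ on the gene's strand, and capitals mark letters that matched a searched motif. They are chr3:83841579-83841858 (minus strand) for Tlr2, chr11:59541319-59541598 (plus strand) for the upstream start of Nlrp3, chr6:123261857-123262136 (plus strand) for Clec4d, chr6:123289842-123290121 (minus strand) for Clec4e and chr9:119339989-119340268 (minus strand) for Myd88.
Tlr2: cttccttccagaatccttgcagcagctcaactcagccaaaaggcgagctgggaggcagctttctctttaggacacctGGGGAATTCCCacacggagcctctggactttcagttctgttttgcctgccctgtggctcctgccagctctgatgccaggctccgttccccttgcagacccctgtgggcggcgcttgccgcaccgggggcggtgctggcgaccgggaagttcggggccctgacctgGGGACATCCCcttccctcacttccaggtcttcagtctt
Nlrp3: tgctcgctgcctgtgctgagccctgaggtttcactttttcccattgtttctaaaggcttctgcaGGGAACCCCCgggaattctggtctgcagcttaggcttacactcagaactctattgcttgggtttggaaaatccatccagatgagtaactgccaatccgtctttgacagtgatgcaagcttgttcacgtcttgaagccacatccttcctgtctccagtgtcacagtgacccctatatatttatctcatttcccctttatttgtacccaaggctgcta
Clec4d: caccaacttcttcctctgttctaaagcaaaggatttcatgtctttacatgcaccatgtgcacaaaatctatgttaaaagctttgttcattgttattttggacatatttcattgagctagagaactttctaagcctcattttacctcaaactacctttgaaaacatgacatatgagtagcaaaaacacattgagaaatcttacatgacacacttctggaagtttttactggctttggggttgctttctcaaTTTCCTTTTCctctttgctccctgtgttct
Clec4e: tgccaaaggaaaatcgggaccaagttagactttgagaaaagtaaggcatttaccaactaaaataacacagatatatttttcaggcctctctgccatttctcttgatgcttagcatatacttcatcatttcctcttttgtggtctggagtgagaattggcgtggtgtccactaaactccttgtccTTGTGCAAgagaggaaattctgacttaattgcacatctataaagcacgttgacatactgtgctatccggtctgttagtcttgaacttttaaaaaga
Myd88: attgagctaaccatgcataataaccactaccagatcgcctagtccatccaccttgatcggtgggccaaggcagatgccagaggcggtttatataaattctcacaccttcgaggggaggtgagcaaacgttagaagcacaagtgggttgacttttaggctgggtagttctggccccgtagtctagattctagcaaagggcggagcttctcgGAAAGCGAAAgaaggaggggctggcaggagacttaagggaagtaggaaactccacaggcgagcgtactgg

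Both strands were searched for the NF-kB motif, the PU.1 motif AGGAAGT, the C/EBP motif TTGCNNAA, the AP-1 motif TGANTCA and the interferon-stimulated response element (ISRE), GAAA followed after any 2 bases by GAAA. The capitals are NF-kB matches in Tlr2 and Nlrp3, where the first capital run of Tlr2 is a pair of overlapping matches, ISRE matches in Clec4d and Myd88, and a C/EBP match in Clec4e. RefSeq windows of 300 bases were matched for 6 members, with 2 windows for Nlrp3; Tlr4 and Tlr7 had no entry. Of these 7 windows, 2 held an NF-kB match, 2 a C/EBP match, 2 an ISRE match, 0 a PU.1 match and 0 an AP-1 match. Among all 32851 promoter windows of that length, 4.51% held NF-kB, 10.8% C/EBP, 3.44% ISRE, 9.35% PU.1 and 7.81% AP-1. A match describes letters in the window and is not a measured binding site.

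The libraries held 4738 to 5346 cells that passed the filters, 19827 in all, with a median of 3736 to 4976 UMIs (unique molecular identifiers, 1 per captured transcript) per cell. Angptl4 had 47 and 78 UMIs in the Angptl4+/+ libraries and 0 and 0 in the Angptl4-/- libraries, and Ptprc, which encodes CD45, was detected in 89.8% to 93.9% of cells. Libraries shared few barcodes, 50 in 2 or more of them. Cells were clustered without the members, and clusters were named only from marker genes: neutrophil-like, macrophage-like, monocyte-like and dendritic cell-like, B cell-like, and a cluster with NK cell and T cell markers (NK/T-like), plus a cluster led by Retnla that was left unnamed. The Xist transcript, which marks the inactive X chromosome of female cells, had 8827 to 19404 UMIs in each library, and the Y-linked Ddx3y had 0 in all 4. Of the other Y-linked genes checked, only Uty had any UMIs, 3 in the Angptl4-/- library at 5 dpw. These values go against the stated male sex in every library, which bears on the X-linked Tlr7 and Tlr13.

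Most of the transcripts of Cd14, the inflammasome sensor Nlrp3 and the lectins came from neutrophil-like cells. Neutrophil-like cells held 59.9% and 66.8% of all UMIs of the Angptl4+/+ and Angptl4-/- libraries at 1 dpw and 29.2% and 45.6% at 5 dpw. For Nlrp3 they held 86.8%, 91.0%, 85.2% and 92.0% of the UMIs in the same order. For Cd14 the shares were 84.8%, 89.4%, 78.0% and 89.7%, and for Clec4d 82.7%, 88.0%, 81.2% and 89.6%. Tlr7 was the exception, with 5.90% to 19.8% of its UMIs in neutrophil-like cells, below their share of all UMIs in each library. Myd88 stood near it, with 33.0% to 57.6%.

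Levels are given in CPM, the UMIs of a gene per 1000000 UMIs summed over the cells of a class in a library. The gene for Cd14 (ENSMUSG00000051439) is protein-coding and lies on chr18:36725067-36726798. In neutrophil-like cells it stood at 6102 and 6231 CPM in the Angptl4+/+ and Angptl4-/- libraries at 1 dpw and at 4773 and 6896 CPM at 5 dpw. In macrophage-like cells it stood at 2212, 2125, 834 and 1182 CPM in that order, in monocyte-like cells between 509 and 750.3 CPM and in dendritic cell-like cells between 89.7 and 281 CPM. Among these classes the order neutrophil-like, macrophage-like, monocyte-like, dendritic cell-like held for Cd14 without overlap of the class ranges. Clec4d had the same order, at 2762 to 2908, 452 to 1222, 161 to 315 and 22.9 to 113 CPM. For Clec4e the ranges were 2361 to 2539, 323 to 1092, 269 to 333 and 24.0 to 190.4 CPM, so macrophage-like and monocyte-like cells overlapped. Nlrp3 ranged from 1042 to 1209 CPM in neutrophil-like cells, from 101 to 350.2 in macrophage-like cells, from 105 to 173 in monocyte-like cells and from 29.1 to 65.4 in dendritic cell-like cells. In NK/T-like cells Cd14 ranged from 83.5 to 890 CPM and Clec4d from 61.3 to 380.4 CPM. Clec4e ranged there from 50.3 to 354.5 CPM and Nlrp3 from 17.5 to 195.7 CPM, highest at 1 dpw. For each of these genes the NK/T-like range overlapped the monocyte-like and dendritic cell-like ranges. The macrophage-like ranges of Cd14, Clec4e and Nlrp3 overlapped it too.

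The Toll-like receptors were spread differently over the cell types. Tlr2, the receptor for bacterial lipoproteins, reached 237 to 322 CPM in neutrophil-like cells and 216 to 348 CPM in macrophage-like cells, with overlapping ranges, against 98.0 to 176 CPM in monocyte-like cells and 39.2 to 89.0 CPM in dendritic cell-like cells. Tlr4 fell in 4 ranges that did not overlap, 102 to 130.4 CPM in neutrophil-like cells, 45.3 to 65.2 in macrophage-like cells, 15.6 to 28.4 in monocyte-like cells and 6.50 to 11.1 in dendritic cell-like cells. Tlr13, which senses bacterial ribosomal RNA, was at 141 to 168 CPM in neutrophil-like cells, 62.5 to 96.9 in macrophage-like cells, 69.5 to 114 in monocyte-like cells and 19.2 to 22.9 in dendritic cell-like cells. Tlr7, which senses single-stranded RNA, ran in another order: monocyte-like cells (41.9 to 73.5 CPM) and macrophage-like cells (44.0 to 54.8 CPM) overlapped, and both stood above dendritic cell-like cells (5.11 to 7.87 CPM) and neutrophil-like cells (3.61 to 5.22 CPM), which overlapped each other. Myd88 varied least between these classes, with 73.2 to 88.9 CPM in neutrophil-like cells, 76.6 to 102 in macrophage-like cells, 94.4 to 154 in monocyte-like cells and 65.8 to 103 in dendritic cell-like cells.

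**Figure D1:**
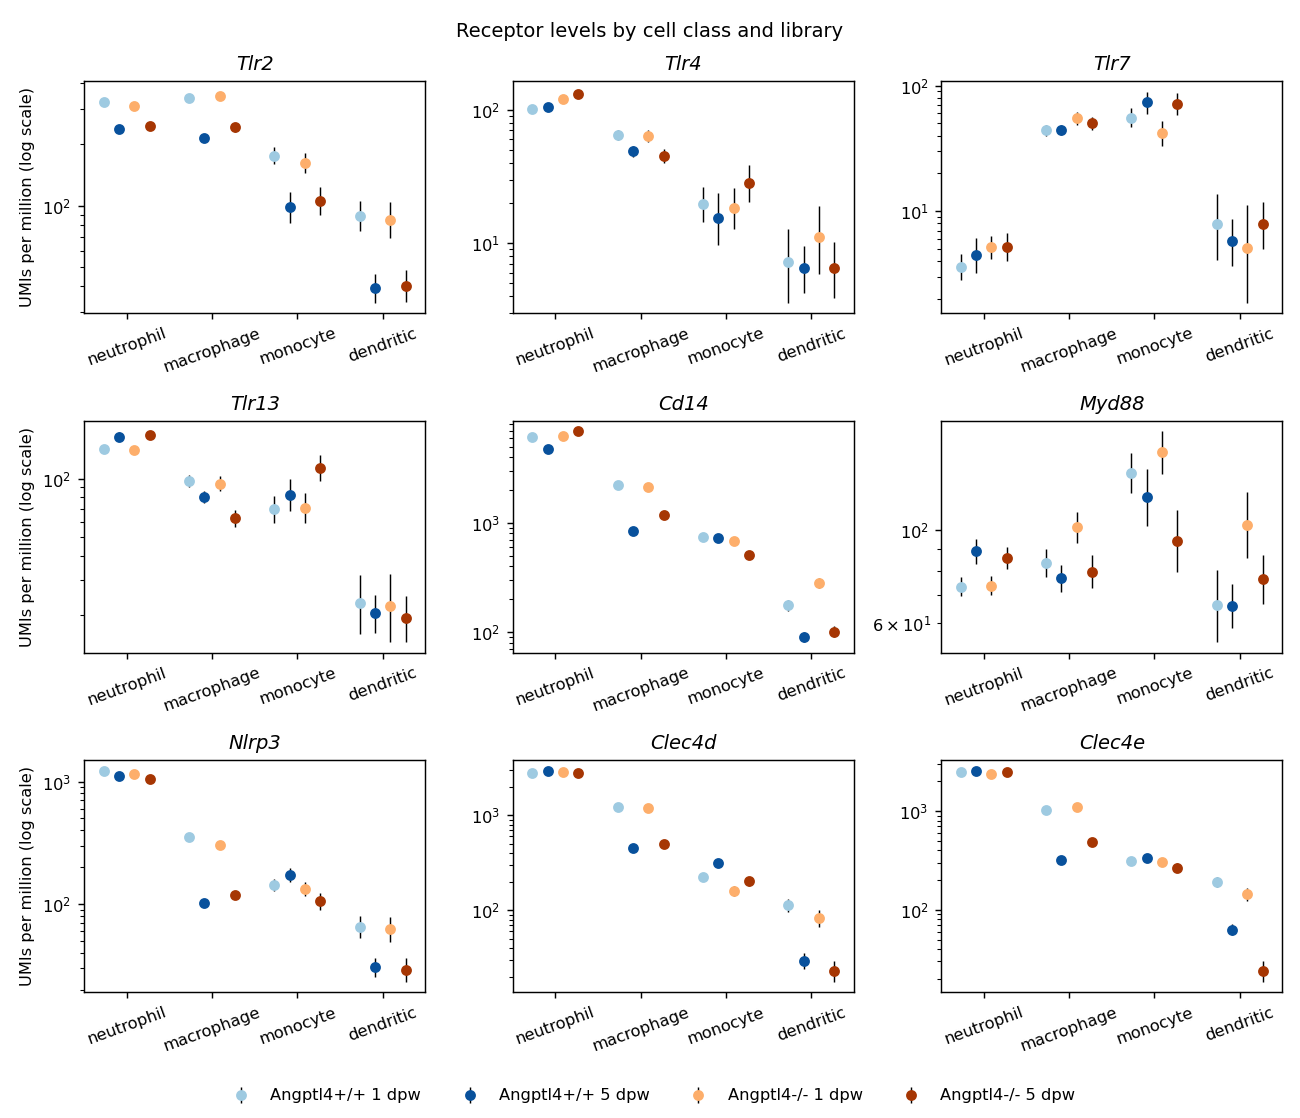
Level of the 9 measured members in 4 cell classes of the 4 libraries, 1 panel per gene, in CPM on a log axis; points are libraries and bars are exact Poisson 95% intervals. Cd14, Nlrp3, Clec4d and Clec4e stand highest in neutrophil-like cells and lower at 5 dpw than at 1 dpw in macrophage-like and dendritic cell-like cells, whereas Tlr7 stands highest in macrophage-like and monocyte-like cells.

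Shares of cells with a UMI followed the same order. At the deposited depth, Cd14 was detected in 90.3% to 99.3% of neutrophil-like cells and Clec4d in 95.3% to 99.2%. After each cell was thinned to 1000 UMIs, which removes differences in depth, Cd14 was detected in 96.1% and 96.3% of neutrophil-like cells at 1 dpw and in 82.4% and 89.9% at 5 dpw (Angptl4+/+ and Angptl4-/-). For Nlrp3 the thinned shares were 61.3% and 59.1% at 1 dpw and 51.5% and 50.5% at 5 dpw. NK/T-like cells, which do not normally express these receptors, gave the background: thinned Cd14 shares of 17.1%, 13.9%, 3.1% and 8.68%, and thinned Nlrp3 shares of 2.86%, 5.56%, 0.885% and 1.83% in the same order. Unthinned, those were 22.9%, 41.7%, 12.8% and 17.8% for Cd14, at median depths of 6245 to 7136 UMIs against 3218 to 4683 in neutrophil-like cells. The neutrophil-like shares of Cd14 and Nlrp3 stood above this background in every library despite the lower depth. The background rested on few NK/T-like cells, 35 and 36 at 1 dpw and 226 and 219 at 5 dpw (Angptl4+/+ and Angptl4-/-). Thinned Tlr7 was found in 0.415% to 0.653% of neutrophil-like cells and rested on 39 to 95 UMIs per library before thinning.

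Within the neutrophil-like cells, Cd14, Nlrp3, Clec4d and Clec4e were highest in the same cluster and lowest in the same cluster of the 7, whereas the other members differed. The cluster led by Csf3, F3, Serpinb2 and Il1a had the highest pooled levels of Cd14 (7817 CPM), Nlrp3 (1873 CPM), Clec4d (3412 CPM) and Clec4e (3290 CPM), and stood highest for these 4 genes in each library. The cluster led by Gpr27, Ngp, Ceacam10 and Mmp8, genes of immature neutrophil granules among them, had the lowest pooled Cd14 (3232 CPM), Nlrp3 (485 CPM), Clec4d (1795 CPM) and Clec4e (1090 CPM). Tlr4 (64.2 CPM) and Tlr13 (92.0 CPM) were also lowest there. That cluster had the highest Myd88, at 135 CPM against 44.6 CPM in the cluster led by Cldn1 and Pdcd1lg2. Tlr13 was highest in the Cldn1 cluster, at 236 CPM. The pooled Tlr2 level ran from 224 CPM in the cluster led by Prok2, Lrg1 and Ly6g to 348 CPM in the cluster led by the interferon-stimulated genes Ifit3b, Ifit1 and Rsad2, but the order of the clusters for Tlr2 differed between libraries.

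**Figure D2:**
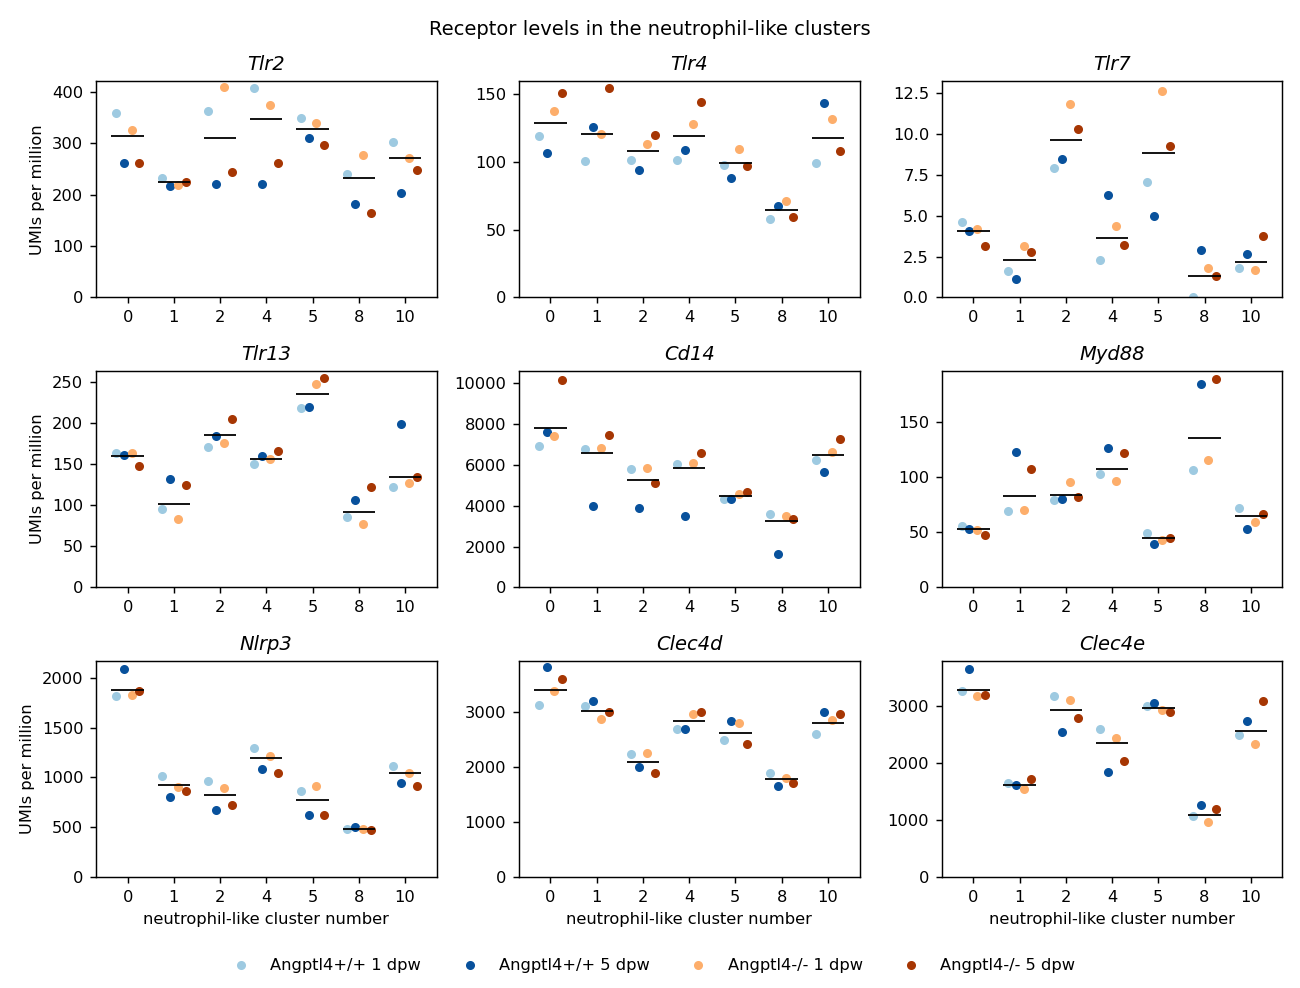
Level of the 9 measured members in the 7 neutrophil-like clusters, in CPM on linear axes from 0; points are the 4 libraries and the black line is the level pooled over them. Nlrp3 spans 485 to 1873 CPM between clusters, and Myd88 is highest in the cluster where Nlrp3, Cd14 and Clec4e are lowest.

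Macrophage-like cells consisted of 2 clusters. In the cluster led by Sema3c, Ptges, Mmp12 and Arg1, the pooled levels were 2150 CPM for Cd14, 283 for Nlrp3, 1138 for Clec4d and 998 for Clec4e. In the cluster led by Ccl8, Ccl12, Gas6 and C1qa, they were 701 CPM for Cd14, 116 for Nlrp3, 386 for Clec4d and 289.6 for Clec4e. Tlr7 and Myd88 stood the other way round, at 34.3 and 60.1 CPM in the first cluster and 64.0 and 114 CPM in the second. Clustering the macrophage-like, monocyte-like, dendritic cell-like and Retnla-led cells on their own gave finer groups. Among these, a group of 33 cells led by Siglech, a gene of plasmacytoid dendritic cells, had the highest Tlr7, 109 CPM (interval 77.3 to 149). Cells led by Fscn1, Ccl22 and Ccr7, genes of mature dendritic cells, had the lowest Tlr7, 0.957 CPM (interval 0.261 to 2.45), which rested on 4 UMIs. There Tlr2 (15.3 CPM), Nlrp3 (16.0 CPM) and Cd14 (75.4 CPM) were also low.

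The first comparison the design implies is between 1 and 5 dpw within each genotype. In macrophage-like cells, Cd14, Nlrp3, Clec4d and Clec4e were all lower at 5 dpw in both genotypes by 1.80-fold to 3.45-fold. Over the class as a whole, Tlr7 and Myd88 differed by less than 1.5-fold between days. A member was counted as lower or higher when its level differed by at least 1.5-fold with at least 100 UMIs over both libraries. By this measure 5 of 9 members were lower in Angptl4+/+ macrophage-like cells, where 9.59% of all genes were, and 5 of 9 in Angptl4-/- cells, where 9.86% were. No member was higher, against 18.1% and 12.8% of all genes.

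Nlrp3 fell from 350.2 to 101 CPM in Angptl4+/+ macrophage-like cells, a log2 ratio of -1.79 (-1.89 to -1.68), and from 303 to 119 CPM in Angptl4-/- cells, -1.35 (-1.48 to -1.22). Clec4e fell from 1029 to 323 CPM, -1.67 (-1.73 to -1.61), and from 1092 to 485 CPM, -1.17 (-1.24 to -1.11). Clec4d fell from 1222 to 452 CPM, -1.44 (-1.49 to -1.39), and from 1201 to 504 CPM, -1.25 (-1.32 to -1.19). All 3 were high in both 1 dpw libraries and low in both 5 dpw libraries. Cd14 had a log2 ratio of -1.41 (-1.44 to -1.37) in Angptl4+/+ cells and -0.85 (-0.89 to -0.80) in Angptl4-/- cells. Tlr2 was at 339.5 and 216 CPM in Angptl4+/+ cells, -0.66 (-0.74 to -0.57), and at 348 and 243 CPM in Angptl4-/- cells, -0.52 (-0.62 to -0.42), which was within 1.5-fold. Tlr13 was within it in Angptl4+/+ cells, -0.26 (-0.41 to -0.12), and just past it in Angptl4-/- cells, -0.59 (-0.79 to -0.40). In cells thinned to 1000 UMIs, 3 of these ratios lay within 1.5-fold, Tlr2 in Angptl4+/+ cells (-0.57) and Cd14 (-0.52) and Tlr13 (-0.37) in Angptl4-/- cells.

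Endosomal Tlr7 stood at 44.0 and 44.3 CPM at 1 and 5 dpw in Angptl4+/+ macrophage-like cells, a log2 ratio of 0.01 (-0.20 to 0.22), and at 54.8 and 50.1 CPM in Angptl4-/- cells, -0.13 (-0.37 to 0.11). Myd88 had ratios of -0.12 (-0.27 to 0.03) and -0.35 (-0.54 to -0.17), and Tlr4 of -0.42 (-0.60 to -0.24) and -0.49 (-0.73 to -0.26). The median of the members was -0.66 in Angptl4+/+ and -0.59 in Angptl4-/- cells, beside 0.13 and 0.05 for all genes tested. The mixture of clusters moved with the day, since the Sema3c cluster made up 73.9% and 68.2% of the macrophage-like class at 1 dpw but 57.0% and 49.1% at 5 dpw. Within each of the 2 clusters, Cd14, Nlrp3, Clec4d and Clec4e were still lower at 5 dpw in both genotypes. For Cd14 in Angptl4-/- cells the ratio was -0.41 in the Sema3c cluster, within 1.5-fold, and -1.04 in the Ccl8 cluster. In the Sema3c cluster Nlrp3 had ratios of -1.57 in Angptl4+/+ and -0.94 in Angptl4-/- cells, and Clec4e of -1.28 and -0.60. In the Ccl8 cluster Nlrp3 had ratios of -1.73 and -1.60, and Clec4e of -2.19 and -1.77. Myd88 had ratios of -0.57 and -0.66 in the Ccl8 cluster, the latter past 1.5-fold, and of 0.02 and -0.33 in the Sema3c cluster. Tlr7 was lower in both clusters, by ratios of -0.2 to -0.11 in Angptl4+/+ and -0.58 to -0.18 in Angptl4-/- cells. Tlr2 had ratios of -0.49 and -0.1 in the Sema3c cluster, both within 1.5-fold, and of -0.7 and -0.81 in the Ccl8 cluster.

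**Figure D3:**
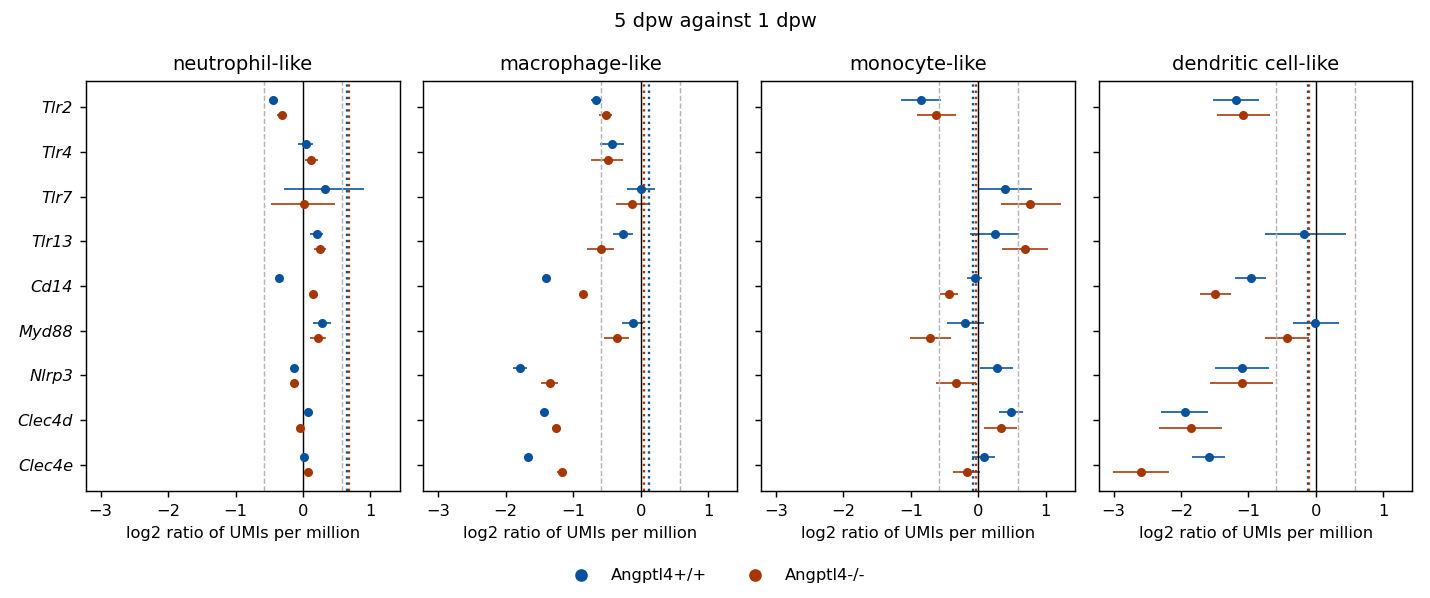
Log2 ratio of the level at 5 dpw to that at 1 dpw in 4 cell classes, for each genotype, for members with at least 100 UMIs; bars are exact 95% intervals, dotted lines the median of all genes and dashed grey lines 1.5-fold. In macrophage-like cells Cd14, Nlrp3, Clec4d and Clec4e lie between -1.79 and -0.85, while in neutrophil-like cells every member lies between -0.44 and 0.32 under a median gene of 0.65 and 0.68.

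Summed neutrophil markers were abundant over all cells and declined in the libraries between days, so they were followed in the same classes. The 8 neutrophil markers summed to 123000 and 146300 CPM over all cells at 1 dpw and to 32130 and 49510 CPM at 5 dpw (Angptl4+/+ and Angptl4-/-), and none was at 0. Within the macrophage-like class they came to 9338 and 9289 CPM at 1 dpw but to 1683 and 2034 CPM at 5 dpw, which is 4.72%, 4.33%, 1.61% and 1.92% of their level in neutrophil-like cells of the same library. Clec4d in macrophage-like cells was at 44.1%, 42.4%, 15.5% and 18.3% of its neutrophil-like level in that order, and Nlrp3 at 29.0%, 26.5%, 9.20% and 11.4%. The highest single marker, Csf3r, reached 6.87% to 12.1%. With neutrophil RNA subtracted at the level of the summed markers, the macrophage-like log2 ratios were -1.81 and -1.36 for Nlrp3, -1.43 and -1.26 for Clec4d, -1.69 and -1.18 for Clec4e and -1.35 and -0.82 for Cd14 in Angptl4+/+ and Angptl4-/- cells, close to those without it. These subtracted values also depend on the marker share taken off. Only the share of the summed markers was used, which is below that of Csf3r.

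**Figure D4:**
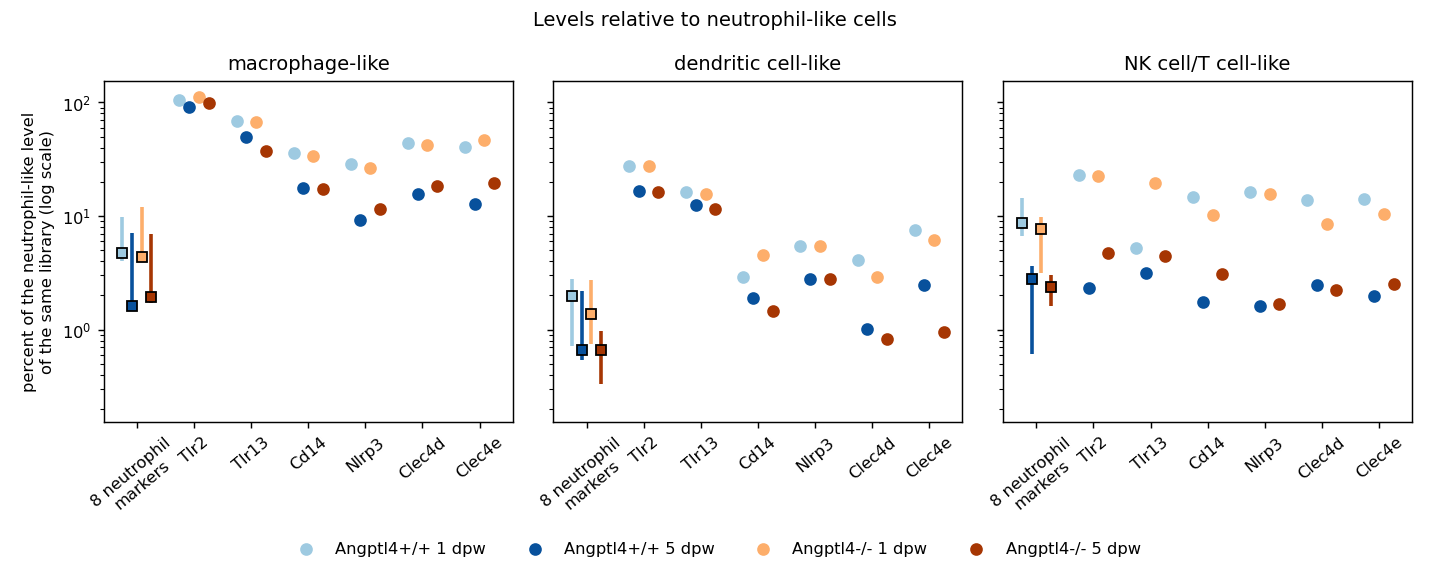
Level of 6 members and of the neutrophil markers in macrophage-like, dendritic cell-like and NK/T-like cells, as percent of the level in neutrophil-like cells of the same library, on a log axis. Squares are the 8 markers summed, lines run from the lowest to the highest marker and points are the members; in macrophage-like cells all 6 members lie above the markers of the same library, and in NK/T-like cells Cd14, Nlrp3, Clec4d and Clec4e lie close to them.

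In dendritic cell-like cells 5 members, Tlr2, Cd14, Nlrp3, Clec4d and Clec4e, were lower at 5 dpw in both genotypes. They were 5 of 7 members tested in Angptl4+/+ cells, where 15.0% of all genes were lower, and 5 of 6 in Angptl4-/- cells, where 11.4% were. Clec4d was at 113 and 29.4 CPM in Angptl4+/+ cells, a log2 ratio of -1.94 (-2.30 to -1.60), and at 82.7 and 22.9 CPM in Angptl4-/- cells, -1.85 (-2.32 to -1.39). Clec4e had ratios of -1.59 (-1.84 to -1.35) and -2.59 (-3.01 to -2.18), and Nlrp3 of -1.09 (-1.49 to -0.70) and -1.10 (-1.57 to -0.63). Tlr2 had ratios of -1.18 (-1.52 to -0.84) and -1.08 (-1.47 to -0.68). Myd88 was level in Angptl4+/+ cells, at 66.1 and 65.8 CPM, -0.01 (-0.34 to 0.34), and went from 103 to 76.3 CPM in Angptl4-/- cells, -0.43 (-0.76 to -0.10), which was 0.57 after thinning. The ratios of Angptl4-/- dendritic cell-like cells moved under other settings. Thinned to 1000 UMIs, Tlr2 stood at -0.39 and Nlrp3 at -0.50, both within 1.5-fold, and Clec4d at -0.75. Without integration, Clec4e stood at -1.30 and Cd14 at -0.63, against -1.49 with it. With neutrophil RNA subtracted, Clec4d stood at -3.25 and Clec4e at -3.92, values that depend on the marker share taken off. In Angptl4-/- cells at 5 dpw Clec4d was at 0.830% and Clec4e at 0.959% of the neutrophil-like level. Single neutrophil markers ran from 0.332% to 0.968% in the same cells. The members' median was -1.09 and -1.29 there, beside -0.12 and -0.11 for all genes.

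Levels of Cd14 and the lectins in dendritic cell-like cells lay nearer to those of neutrophil markers than in macrophage-like cells. Summed neutrophil markers in dendritic cell-like cells were at 1.97% and 1.38% of the neutrophil-like level at 1 dpw and at 0.657% and 0.665% at 5 dpw, and Cd14 was at 2.89%, 4.51%, 1.88% and 1.45%. With neutrophil RNA subtracted, Cd14 in Angptl4+/+ dendritic cell-like cells turned from -0.97 (-1.20 to -0.74) to 0.07, whereas Tlr2 stood at -1.13 and Clec4e at -1.60. The subtracted Cd14 value depends on the marker share taken off. In these Angptl4+/+ cells single markers ran from 0.716% to 2.80% at 1 dpw, with a median of 1.99%. At 5 dpw they ran from 0.540% to 2.19%, with a median of 1.22%. In NK/T-like cells, Cd14, Clec4d and Clec4e, the 3 members with enough UMIs, were lower at 5 dpw in both genotypes (3 of 3, against 19.8% and 16.8% of all genes). There Clec4d was at 13.7%, 8.43%, 2.49% and 2.22% of its neutrophil-like level and the summed neutrophil markers at 8.67%, 7.66%, 2.76% and 2.35%, so members and markers were lower together. The unnamed Retnla-led cluster, where 7 of 9 members were lower in Angptl4+/+ cells (9.64% of genes) and 5 of 8 in Angptl4-/- cells (14.8%), held 32870 and 19550 CPM of the summed neutrophil markers at 1 dpw and 2213 and 1521 CPM at 5 dpw, and their part in these counts was not tested.

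In neutrophil-like cells no member passed 1.5-fold between days in either genotype (0 of 9 in each), while 58.4% of all genes did in Angptl4+/+ cells and 59.8% in Angptl4-/- cells. Nearly all of those were higher at 5 dpw (53.9% and 55.6% of genes). The median gene was higher by 0.65 and 0.68 on the log2 scale, and the members' median was 0.04 and 0.08. S100a8 and S100a9, which alone made up 16.9% and 18.6% of neutrophil-like UMIs at 1 dpw and 9.32% and 9.41% at 5 dpw, moved with this shift, and their part in it was not tested. Relative to the median gene, 5 members were lower in Angptl4+/+ cells (Tlr2, Tlr4, Cd14, Nlrp3 and Clec4e), where 19.3% of genes were, and 5 in Angptl4-/- cells (Tlr2, Tlr7, Nlrp3, Clec4d and Clec4e), where 19.0% were.

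Tlr2 had the lowest ratio among the members in neutrophil-like cells of both genotypes. It stood at 322 and 237 CPM at 1 and 5 dpw in Angptl4+/+ cells, -0.44 (-0.51 to -0.37), and at 308 and 248 CPM in Angptl4-/- cells, -0.31 (-0.38 to -0.25), which is -1.09 and -1.0 relative to the median gene. Nlrp3 was at 1209 and 1103 CPM and at 1141 and 1042 CPM, -0.13 in each genotype and -0.78 and -0.81 relative to the median gene. Cd14 went from 6102 to 4773 CPM in Angptl4+/+ cells, -0.35 (-0.37 to -0.34), and from 6231 to 6896 CPM in Angptl4-/- cells, 0.15 (0.13 to 0.16), where centring on the median gene turned it to -0.54. The positive ratios of Myd88 (0.28 and 0.22) and Tlr13 (0.21 and 0.25) likewise turned negative when centred, to -0.37 and -0.46 and to -0.44 and -0.43. Across the 7 clusters the Cd14 ratio was not uniform. Without centring it ran from -1.16 to 0.13 in Angptl4+/+ cells, lower in 5 clusters and higher in 1. In Angptl4-/- cells it ran from -0.2 to 0.46, higher in 5 clusters and lower in 2.

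In monocyte-like cells, which numbered 129 to 158 per library, more members passed 1.5-fold between days in Angptl4-/- than in Angptl4+/+ cells. Tlr2 was lower at 5 dpw in both genotypes, at 176 and 98.0 CPM in Angptl4+/+ cells, -0.85 (-1.14 to -0.56), and at 162 and 105 CPM in Angptl4-/- cells, -0.62 (-0.91 to -0.33). It was 1 of 8 members tested in Angptl4+/+ cells, where 9.11% of genes were lower. In Angptl4-/- cells Myd88 was also lower, -0.71 (-1.01 to -0.41), so 2 of 8 members were lower there, against 6.20% of genes. There Tlr7, 0.77 (0.33 to 1.22) or 0.45 after thinning, and Tlr13, 0.69 (0.35 to 1.03), were higher, 2 of 8 members against 5.92% of genes. In Angptl4+/+ cells Myd88, Tlr7 and Tlr13 went the same ways between days, within 1.5-fold. They stood there at 137 and 120 CPM for Myd88, 55.7 and 73.5 for Tlr7 and 69.5 and 82.4 for Tlr13. Clec4d was at 225 and 315 CPM in Angptl4+/+ cells, 0.49 (0.30 to 0.67), but its ratio was -1.27 with neutrophil RNA subtracted. Neutrophil markers in these cells reached 3.78% to 10.1% of the neutrophil-like level and Clec4d 5.66% to 10.8%. In Angptl4+/+ cells at 5 dpw the summed markers stood at 10.1% and Clec4d at 10.8%, while single markers ran from 4.07% to 13.8%. The subtracted ratio of Clec4d therefore depends on the marker share taken off.

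The second comparison is between the genotypes at each day, which draws on the same 4 libraries as the comparison of days. At 1 dpw the members differed by less than 1.5-fold between the genotypes in 3 of the 4 classes. None of 9 passed 1.5-fold in neutrophil-like cells (4.65% of all genes did), none of 9 in macrophage-like cells (3.76%) and none of 8 in monocyte-like cells (3.44%). The median member ratio of Angptl4-/- to Angptl4+/+ was 0.01 in neutrophil-like and -0.03 in macrophage-like cells, beside -0.09 and 0.02 for all genes. In dendritic cell-like cells 2 of 6 members were higher, where 3.50% of genes were. Cd14 was at 176 CPM in Angptl4+/+ and 281 CPM in Angptl4-/- cells, 0.68 (0.44 to 0.91). Its ratio was 0.29 without integration, within 1.5-fold. With neutrophil RNA subtracted it was 1.81, a value that depends on the marker share taken off. Myd88 was at 66.1 and 103 CPM, 0.64 (0.25 to 1.04), which was 0.07 in cells thinned to 1000 UMIs.

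At 5 dpw Cd14 was higher in Angptl4-/- than in Angptl4+/+ cells of both abundant classes, though by less than 1.5-fold. In neutrophil-like cells it was at 4773 and 6896 CPM, a log2 ratio of 0.53 (0.51 to 0.55) or 1.44-fold, and 97.7% of genes had a lower ratio. The ratio was positive in 7 of 7 neutrophil-like clusters, from 0.11 to 1.05. In macrophage-like cells Cd14 was at 834 and 1182 CPM, 0.50 (0.46 to 0.55), with 0.78 in the Sema3c cluster and 0.34 in the Ccl8 cluster. In monocyte-like cells it was lower in Angptl4-/- cells, at 723 and 509 CPM, -0.51 (-0.65 to -0.37), which was -2.29 with neutrophil RNA subtracted. The subtracted value depends on the marker share taken off. Single markers there ran from 4.07% to 13.8% of the neutrophil-like level in Angptl4+/+ and from 3.99% to 15.3% in Angptl4-/- cells. At 1 dpw the Cd14 ratios were 0.03 (0.02 to 0.04) in neutrophil-like and -0.06 (-0.09 to -0.02) in macrophage-like cells.

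None of 9 members passed 1.5-fold in neutrophil-like cells at 5 dpw, as 5.45% of genes did, and relative to the median gene Cd14 did, at 0.60, where 2.43% of genes were higher. In macrophage-like cells Clec4e was the 1 of 9 that was higher, at 323 and 485 CPM, 0.59 (0.51 to 0.66), where 1.66% of genes were. It lay at the threshold, and its ratio was 0.86 within the Sema3c cluster and 0.54 within the Ccl8 cluster. Nlrp3 in macrophage-like cells was at 101 and 119 CPM, 0.23 (0.09 to 0.37), and Clec4d at 452 and 504 CPM, 0.16 (0.09 to 0.23). Tlr13 was at 80.8 and 62.5 CPM, -0.37 (-0.55 to -0.19).

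In the smaller classes the members past 1.5-fold at 5 dpw were lower in Angptl4-/- cells. In monocyte-like cells Nlrp3 was at 173 CPM in Angptl4+/+ and 105 CPM in Angptl4-/- cells, -0.71 (-1.02 to -0.41), and Clec4d at 315 and 201 CPM, -0.65 (-0.87 to -0.43). They were 2 of 8 members, where 2.89% of genes were lower, and neutrophil markers in these cells stood at 10.1% and 6.66% of the neutrophil-like level. Their part in the difference was not tested beyond the subtraction, after which Clec4d stood at -0.31, a value that also depends on the marker share taken off. In dendritic cell-like cells Clec4e was lower, at 63.1 and 24.0 CPM, -1.40 (-1.80 to -1.01), 1 of 7 members where 3.25% of genes were; its ratio was -0.10 when cells were clustered without integration.

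Tlr4, the lipopolysaccharide receptor, was slightly higher in Angptl4-/- neutrophil-like cells at both days. It stood at 102 and 119.8 CPM at 1 dpw, 0.23 (0.15 to 0.32), and was higher in 7 of 7 clusters by 0.15 to 0.41. At 5 dpw it stood at 104 and 130.4 CPM, 0.32 (0.20 to 0.44), and was higher in 5 of 7 clusters and lower in 2, by ratios from -0.4 to 0.5. Tlr7 in neutrophil-like cells rested on 71 and 95 UMIs at 1 dpw, a ratio of 0.52 (0.06 to 0.99).

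**Figure D5:**
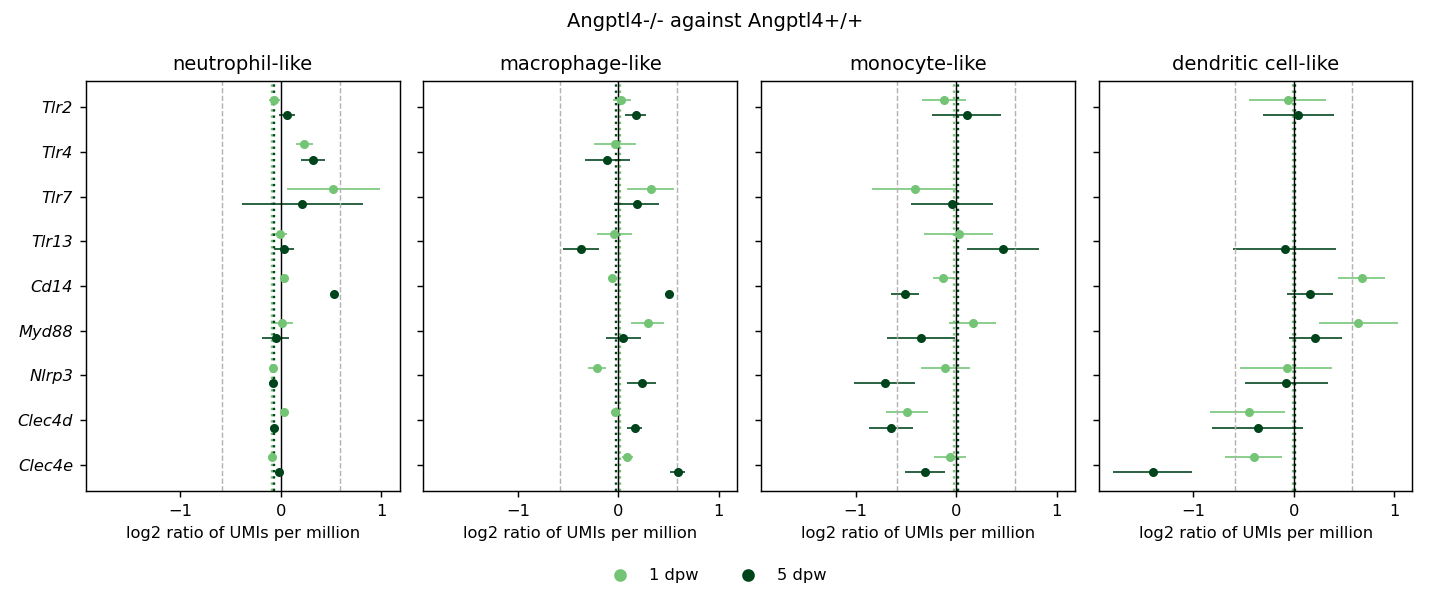
Log2 ratio of the level in Angptl4-/- to that in Angptl4+/+ cells at 1 and 5 dpw in 4 cell classes, for members with at least 100 UMIs; bars are exact 95% intervals, dotted lines the median of all genes and dashed grey lines 1.5-fold. At 1 dpw the members of neutrophil-like and macrophage-like cells lie between -0.21 and 0.52, and at 5 dpw Cd14 stands at 0.53 and 0.50 in these classes.

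Genes that work with the receptors were taken as 86 genes in pathway lists. Between days in macrophage-like cells, 17 were higher and 16 lower of 76 tested in Angptl4+/+ cells, and 8 were higher and 17 lower of 73 in Angptl4-/- cells. Of all genes 18.1% were higher and 9.59% lower in Angptl4+/+ cells, and 12.8% and 9.86% in Angptl4-/- cells. Among inhibitors of the pathway, 4 of 6 tested were lower in Angptl4+/+ cells (Tollip, Tnfaip3, Socs1 and Nfkbia) and 3 of 6 in Angptl4-/- cells (Irak3, Tnfaip3 and Nfkbia). Tnfaip3, which encodes the ubiquitin-editing enzyme A20, went from 241 to 77.0 CPM, -1.64 (-1.77 to -1.52), in Angptl4+/+ and from 221 to 95.4 CPM, -1.21 (-1.36 to -1.07), in Angptl4-/- macrophage-like cells. The formyl peptide receptors Fpr1 and Fpr2 and Pglyrp1, which are abundant in neutrophils, were lower in both genotypes, 3 of 3. Fpr1 had ratios of -2.55 (-2.82 to -2.28) and -2.06 (-2.36 to -1.78). The summed neutrophil markers in this class also fell, from 9338 to 1683 CPM in Angptl4+/+ and from 9289 to 2034 CPM in Angptl4-/- cells. Their part in the ratios of these 3 genes was not tested.

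The partners of the members did not all move with them in macrophage-like cells. Il1b, the cytokine that the Nlrp3 inflammasome matures, went from 3146 to 1247 CPM, -1.34 (-1.37 to -1.30), in Angptl4+/+ cells and from 2791 to 1473 CPM, -0.92 (-0.96 to -0.88), in Angptl4-/- cells. Pycard, the inflammasome adaptor, was at 184 and 270.4 CPM, 0.56 (0.46 to 0.65), and at 187 and 238 CPM, 0.35 (0.23 to 0.47), and Casp1 had a ratio of 0.17 in each genotype. Fcer1g, the signalling chain of Clec4d and Clec4e, had ratios of -0.21 (-0.23 to -0.18) and -0.06 (-0.09 to -0.03). Among other C-type lectins Clec4b1 was higher at 5 dpw. It was at 2.37 and 19.1 CPM in Angptl4+/+ cells, 3.01 (2.33 to 3.78), and at 4.81 and 35.5 CPM in Angptl4-/- cells, 2.89 (2.28 to 3.55).

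In neutrophil-like cells 23 of 60 pathway genes were higher and 3 lower in Angptl4+/+ cells, and 21 were higher and 4 lower in Angptl4-/- cells, under the shift of the median gene given above. These were smaller shares than the 53.9% and 55.6% of all genes that were higher there, and 4.50% and 4.18% of all genes were lower. Unc93b1, Hsp90b1 and Cnpy3, which fold Toll-like receptors or carry them to endosomes, were 3 of the 4 co-receptors and chaperones tested and were higher in both genotypes, as were most genes. Cnpy3 was at 6.05 and 24.5 CPM, 2.01 (1.68 to 2.35), in Angptl4+/+ cells and at 6.71 and 20.1 CPM, 1.58 (1.26 to 1.90), in Angptl4-/- cells. Il1b was at 11220 and 15590 CPM, 0.47 (0.46 to 0.48), and at 10230 and 15780 CPM, 0.63 (0.62 to 0.63), and both ratios are at or below the median gene. Tlr1, which pairs with Tlr2, was lower at 5 dpw, at 35.5 and 12.1 CPM, -1.56 (-1.87 to -1.26), and at 37.0 and 19.9 CPM, -0.90 (-1.11 to -0.68). Between the genotypes at 1 dpw, no pathway gene passed 1.5-fold in neutrophil-like cells (0 of 59), and 1 of 71, which was lower, did in macrophage-like cells (4.65% and 3.76% of all genes did).

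Each member's pattern was also compared with that of 8462 other genes over 18 sums of a class in a library, as Pearson's r of log2(CPM + 1). These sums share their 4 libraries and are not independent samples, so the values are a description. The most similar gene was App for Tlr2 (0.985), Card19 for Tlr4 (0.982), Rnf130 for Tlr7 (0.966), Notch2 for Tlr13 (0.985), Cd44 for Cd14 (0.990), Trps1 for Myd88 (0.953), Tiparp for Nlrp3 (0.987), Grina for Clec4d (0.987) and Cd44 for Clec4e (0.985). The cytokine genes Il1a (0.984, with Nlrp3) and Cxcl2 (0.987, with Clec4d) were among the 3 most similar.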

How the data were processed

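Single-cell RNA-seq libraries (10x Genomics, 3′ V3 chemistry) of sorted CD45+ wound cells were analysed from the matrices that the authors deposited, which hold raw UMI counts per gene and cell, not normalized, 1 matrix per library. Per the submitters' processing notes, Cell Ranger 3.1.0 and Seurat 3.0 were used upstream. The deposited matrices held 26981596 to 32962595 UMIs per library in 20069 barcodes; 242 with under 200 genes or over 10% mitochondrial UMIs were left out.

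Cells were integrated by library with Seurat 5.3.0 (R 4.3.3; 2000 variable genes without the members, 30 dimensions, resolution 0.5) and the 14 clusters were named from marker lists. Doublet scores came from scrublet (in scanpy 1.11.5), whose own threshold marked 7 cells. The calls were therefore set, after seeing that, at 0.8% of cells per 1000 cells, which marked 789 cells (3.98%). They were kept, and removing them was an alternative. UMIs were summed per class and library and given as CPM with exact Poisson intervals. Log2 ratios had exact conditional binomial intervals, and shares exact Clopper-Pearson ones (scipy 1.17.1, confidence level 95%). These cover counting error only, and precision is set by the 1173281 to 19664815 UMIs of the 4 main classes in a library. With 1 library per genotype and day, no test between groups was made. The ratio scripts were tested on simulated data.

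The members and the marker, pathway and motif lists were chosen with earlier results of these data known. All members with a row were named. From the pathway lists, at most 4 genes with the largest ratio past 1.5-fold in each direction of a class and contrast were named, plus genes of a step the members use, and the genes in a count when few. Neutrophil RNA was subtracted, as an alternative, by lowering each gene by its neutrophil-like level times the share at which the 8 neutrophil markers stood in that class and library. In all, 9 planned and 3 added alternatives were run. Clec7a, which GENCODE annotates as a polymorphic pseudogene on GRCm38, was not analysed here. Positions are from GENCODE and promoter letters from RefSeq.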

Additional observations from a re-analysis of the deposited data

Results flagged for a closer look

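Each member was looked at in neutrophil-like, macrophage-like, monocyte-like and dendritic cell-like cells. In 6 cases its log2 ratio had opposite signs under the same contrast in the 2 genotypes or at the 2 days, with both counting intervals away from 0 and at least 100 UMIs behind each ratio. With 1 library in each group, none of these differences was tested. The share of all genes that met this rule is not given here, so the 6 cases are a list and not a result about the members. Cd14 in neutrophil-like cells had a 5 dpw to 1 dpw ratio of -0.35 in Angptl4+/+ and 0.15 in Angptl4-/- cells, and both were negative relative to the median gene. The thinned share of neutrophil-like cells with Cd14, given above, was lower at 5 dpw in both genotypes. In Angptl4-/- cells the share and the level therefore went opposite ways. In macrophage-like cells the Angptl4-/- to Angptl4+/+ ratio of Cd14 was -0.06 at 1 dpw and 0.50 at 5 dpw, and that of Nlrp3 was -0.21 and 0.23. Clec4d in neutrophil-like cells had small ratios of both signs, 0.03 at 1 dpw and -0.07 at 5 dpw between genotypes, and 0.07 in Angptl4+/+ and -0.04 in Angptl4-/- cells between days. Nlrp3 in monocyte-like cells had a ratio between days of 0.28 in Angptl4+/+ and -0.33 in Angptl4-/- cells.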

How the results depend on the processing

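No paired analysis was possible because each genotype and day had 1 library. Of the log2 ratios of called members, 1 reversed: Cd14 in Angptl4+/+ dendritic cell-like cells between days was 0.07 with neutrophil RNA subtracted, against -0.97. That subtracted value depends on the marker share taken off. The macrophage-like ratios between days of Cd14, Nlrp3, Clec4d and Clec4e stayed negative under all 10 alternatives. They ran from -1.53 to -1.32, -1.92 to -1.61, -1.61 to -1.29 and -1.81 to -1.54 in Angptl4+/+ cells, and from -0.98 to -0.52, -1.47 to -1.19, -1.37 to -1.15 and -1.32 to -1.01 in Angptl4-/- cells. The subtraction of neutrophil RNA among these settings used only the share of the summed markers. The counts of members past the threshold moved as follows. In neutrophil-like cells, where the count was 0 in each comparison, centring on the median gene gave 5 between days in each genotype and 1 between genotypes at each day. Removing doublet calls and thinning each gave 1 between genotypes at 1 dpw. In macrophage-like cells a 2-fold threshold gave 3 between days in Angptl4-/- cells, against 5. Between genotypes at 5 dpw, against 1, the 2-fold threshold, the stricter filter on cells, no integration and the joined Retnla-led cluster each gave 0. Thinning and the mean of cell CPM each gave 2, and the cause was not tested. Apart from the centring shares printed above, the share of all genes past the threshold under these settings is not given here. The moved counts are therefore not set against a background. Joining the Retnla-led cluster, leaving out cells with a shared barcode and subtracting neutrophil RNA were chosen after seeing the data. With 1 library per group, depth limits the small classes and genes at low levels, and the spread between mice is unknown.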

Other observations

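In dendritic cell-like cells at 5 dpw, 9 of 59 pathway genes tested were higher and 2 lower in Angptl4-/- than in Angptl4+/+ cells. Of all genes tested there, 3.84% were higher and 3.25% lower. Tlr3, a sensor of double-stranded RNA, was at 9.55 CPM in Angptl4+/+ and 31.8 CPM in Angptl4-/- cells, a log2 ratio of 1.74 (1.18 to 2.32). Clec9a, which like Tlr3 marks cross-presenting dendritic cells, was at 16.3 and 33.9 CPM, 1.05 (0.59 to 1.53). Clec4b1, at 10.1 and 24.3 CPM, had a ratio of 1.27 (0.69 to 1.87), and Il18, at 11.8 and 25.0 CPM, of 1.08 (0.53 to 1.64). Ly96, the partner of Tlr4 in binding lipopolysaccharide, was lower, at 20.6 and 11.6 CPM, -0.82 (-1.45 to -0.23). The class held 302 and 203 cells in these libraries. Whether the mixture of dendritic cell types within it moved these values was not tested.

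The Angptl4-/- library at 5 dpw held red cell transcripts, whose 3 markers summed to 517 CPM, against at most 2.98 CPM in the other libraries.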
